A study of Homo sapiens with 9 samples.

Results

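Transcript levels of 10 genes of the hypoxia response were described in the lung cancer line H1299, with BCKDK present or knocked out; BCKDK is the kinase that switches off the branched-chain keto acid dehydrogenase complex. The 10 come from a set list of hypoxia genes and were found by symbol among the 58735 genes of the deposited table: the oxygen-regulated subunits HIF1A and EPAS1, the oxygen-sensing hydroxylases EGLN1 and EGLN3, and the HIF target genes BNIP3, P4HA1, NDRG1, ADM, ANKRD37 and CA9. RNA sequencing had been done on 9 libraries in 3 groups of 3. Vector cells carried the lentiCRISPR v2 plasmid without loss of BCKDK (genotype label wild type), and KO1 and KO2 were 2 BCKDK knockout lines made by CRISPR editing. Each knockout line was grown out from 1 cell by limiting dilution, while the Vector cells are not described as a clone, so editing and cloning cannot be told apart. The labels name no drug and no oxygen tension. Nor do they say whether a group's libraries are independent cultures, and the p-values below therefore measure only the spread between these libraries. Levels are in FPKM, here fragments per kilobase of all annotated exons of a gene merged, scaled to library size with a further factor. Being per length, they allow a rough order of genes. Annotated exons that these cells may not use also count in the length, so close ranks are uncertain.

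Cells make HIF alpha subunits continuously and destroy them when oxygen is present. EGLN enzymes hydroxylate prolines of the alpha subunit, the VHL ubiquitin ligase then marks it for the proteasome, and HIF1AN blocks its coactivator site by hydroxylating an asparagine. When oxygen falls, HIF1A or EPAS1 (HIF-2 alpha) pairs with ARNT and binds the core letters ACGTG or GCGTG near target genes, which in carcinoma cells include glucose transporters, glycolytic enzymes, VEGFA, and feedback genes such as EGLN3. Because this control acts on protein stability, a transcript level of HIF1A or EPAS1 is not a measure of HIF protein or of its activity.

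Promoter windows of 9 of the 10 genes were found in the RefSeq table (GRCh38.p14). A window runs from 250 bases before the annotated start to 50 after it, and HIF1A has 2 windows. The letters ACGTG or GCGTG, read on both strands, stood in 8 of these 10 windows; over all 35116 windows of this length in the table the share was 48.4% (21.4% for ACGTG and 36.5% for GCGTG). The windows without them were that of EGLN3 and the downstream one of HIF1A. ACGTG also lies inside CACGTG, the E-box letters bound by other factors, and that palindrome is then matched on both strands. Windows of 4 genes are printed: BNIP3 and P4HA1, whose transcripts were lower in both knockout clones, EPAS1, whose transcript moved in opposite directions in the clones, and CA9, which was close to undetected although it is among the best known HIF targets. Capitals mark the core letters on either strand (CACGT and CACGC are the letters as read on the opposite strand), and each window is written 5′ to 3′ along its gene.
BNIP3: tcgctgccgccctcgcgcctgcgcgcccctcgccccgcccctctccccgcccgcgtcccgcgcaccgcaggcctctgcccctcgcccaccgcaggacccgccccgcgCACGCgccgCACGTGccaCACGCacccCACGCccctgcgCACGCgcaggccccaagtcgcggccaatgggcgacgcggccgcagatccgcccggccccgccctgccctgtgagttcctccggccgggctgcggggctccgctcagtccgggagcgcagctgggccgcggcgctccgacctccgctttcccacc
P4HA1: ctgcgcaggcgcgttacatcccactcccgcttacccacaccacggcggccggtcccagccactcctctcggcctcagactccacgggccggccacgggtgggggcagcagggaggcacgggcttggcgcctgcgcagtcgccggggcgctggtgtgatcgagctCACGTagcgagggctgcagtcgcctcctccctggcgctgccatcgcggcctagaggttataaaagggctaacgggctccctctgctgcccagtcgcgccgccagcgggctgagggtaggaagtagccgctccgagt
EPAS1: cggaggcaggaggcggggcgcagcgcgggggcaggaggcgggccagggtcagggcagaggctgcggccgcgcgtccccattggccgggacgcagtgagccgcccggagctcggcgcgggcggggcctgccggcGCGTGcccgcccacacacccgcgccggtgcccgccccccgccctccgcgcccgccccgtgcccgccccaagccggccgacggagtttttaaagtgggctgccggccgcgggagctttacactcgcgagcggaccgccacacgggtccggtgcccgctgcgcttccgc
CA9: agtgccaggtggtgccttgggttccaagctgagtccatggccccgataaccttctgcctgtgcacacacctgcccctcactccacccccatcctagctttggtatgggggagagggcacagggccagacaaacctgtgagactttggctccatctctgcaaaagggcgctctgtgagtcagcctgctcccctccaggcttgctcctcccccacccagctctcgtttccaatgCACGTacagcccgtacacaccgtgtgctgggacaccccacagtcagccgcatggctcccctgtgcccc
The windows are chr10:131981874-131982173 (minus strand), chr10:73096817-73097116 (minus strand), chr2:46297157-46297456 (plus strand) and chr9:35673678-35673977 (plus strand). BNIP3 held 6 matches, 2 of them the same CACGTG read on both strands, packed between 143 and 104 bases before the start. P4HA1 held 1 match at 86 bases before the start, EPAS1 held 1 at 117 bases and CA9 held 1 at 18 bases. A match is a description of the letters and not a measured binding site.

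The targeted gene went with the labels. BCKDK (chromosome 16, hg38 31106107 to 31112791) was at 13.7, 12.9 and 17.5 FPKM in Vector, 1.91, 2.06 and 1.67 in KO1, and 0.629, 0.576 and 0.287 in KO2. Every Vector library was above both clones, and the change from KO1 to KO2 was -0.95 on the log2 scale (adjusted p = 0.00109 by limma). Whole reads recovered from the FPKM values came to between 16002212 and 17090445 per library. Earlier results of these data had set Vector replicate 3 and KO2 replicate 3 apart from their groups, and values without this pair are given where a call changes or a called value moves by over 1.5 times, and for the list counts. The cell type label says lung adenocarcinoma, yet the lung lineage markers NKX2-1, SFTPB and SFTPC were at or below 0.037 FPKM in each group and NAPSA at 0.086 to 0.421, while the mesenchymal markers VIM and ZEB1 were at 702, 591 and 513 and at 8.17, 9.67 and 7.78 in Vector, KO1 and KO2. Of 4 epithelial markers, KRT18 (63.2, 331 and 92.2 FPKM) and KRT8 (16.2, 120 and 16.2) were high in KO1, along with the genes described as higher there, while EPCAM and CDH1 were at or below 0.072 in each group; their part in the results was not tested. Leukocyte, endothelial and fibroblast markers were all at or below 0.419 FPKM.

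HIF1A had the highest mean FPKM of the 10 genes in each group. In Vector it was followed by P4HA1, BNIP3 and EGLN1, whose ranges overlapped from one to the next, and then by ADM, EPAS1, ANKRD37 and NDRG1, with CA9 and EGLN3 lowest. In KO1 the order after HIF1A was EGLN1, EPAS1, P4HA1, BNIP3, NDRG1 and ADM, with no overlap between neighbours down to ANKRD37. From Vector to KO1, EPAS1 moved from the sixth place to the third, NDRG1 from the eighth to the sixth and EGLN1 from the fourth to the second. In KO2 the order after HIF1A was ADM, P4HA1 and EGLN1, which overlapped, then BNIP3, then EPAS1 and ANKRD37, which overlapped, with CA9, NDRG1 and EGLN3 at the bottom.

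**Figure D1:**
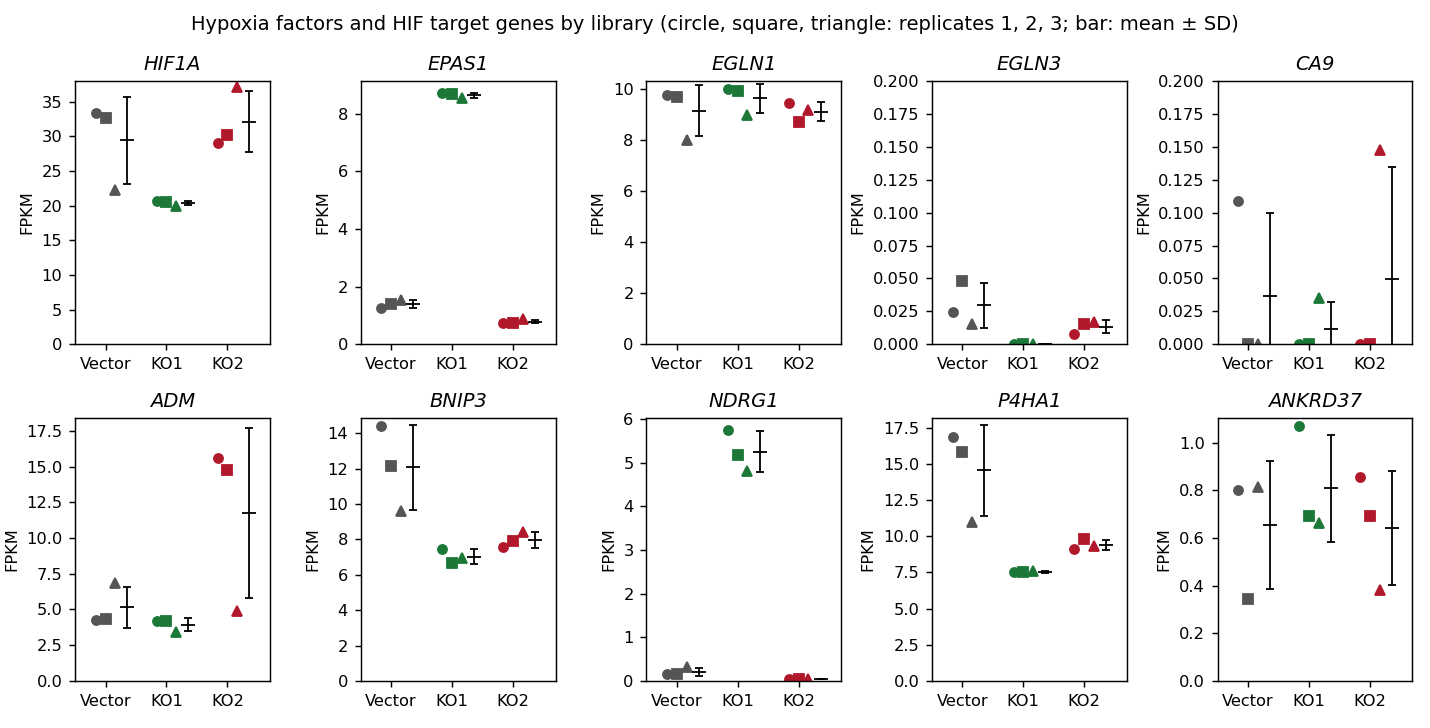
FPKM (vertical axes, each from 0) of the 10 hypoxia genes in the 9 libraries, by group; circles, squares and triangles are replicates 1, 2 and 3, and the black bar is the group mean ± SD. EPAS1 and NDRG1 are high in KO1 only among these groups, and ADM is high in 2 of the 3 KO2 libraries.

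Changes were tested with limma on log2(FPKM + 1) over the 16426 genes whose mean reached 0.5 FPKM, and a call means an adjusted p under 0.05 after Benjamini-Hochberg correction. A fold change on this scale understates the change of genes near or below 1 FPKM. Of the 10 genes, 8 were fitted and EGLN3 and CA9 were too low; NDRG1 passed only through KO1, the single group in which its mean reached 0.5. In KO1 against Vector, 2 of the 8 rose and 3 fell, where 34.1% of all fitted genes were called (17.4% higher and 16.7% lower). In KO2 against Vector, none rose and 3 fell, where 27.9% were called (12.9% higher and 15% lower). In that comparison 4 of the 8 had an unadjusted p under 0.05, and limma-voom on the recovered reads called 5. The 27.9% belongs to the main fit and is not the share of all genes for either of these counts. Neither count is therefore read as a result about the 8 genes. The median log2 change of the 8 was -0.11 in KO1 and -0.111 in KO2, beside 0.00827 and -0.00491 over all fitted genes. Both clones were compared with the same Vector libraries. In bulk RNA, fewer cells that express a gene and less of its RNA per cell cannot be told apart.

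**Figure D2:**
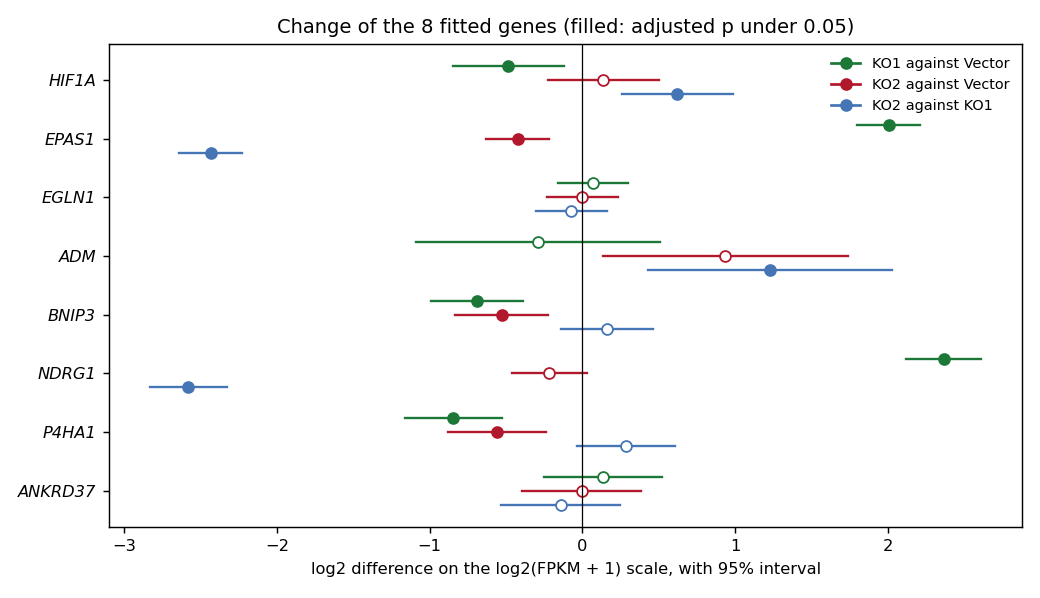
Log2 difference on the log2(FPKM + 1) scale (horizontal axis) with its 95% interval for the 8 fitted genes in 3 comparisons; filled points have a limma adjusted p under 0.05. EPAS1 and NDRG1 lie at 2.01 and 2.37 in KO1 against Vector, while BNIP3 and P4HA1 lie below 0 in both clones.

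EPAS1, the HIF-2 alpha subunit, rose in KO1 and fell in KO2. The gene (ENSG00000116016) lies on the plus strand of chromosome 2, 46293667 to 46386703. Its level was 1.26, 1.39 and 1.55 FPKM in Vector, 8.71, 8.67 and 8.54 in KO1, and 0.752, 0.749 and 0.863 in KO2. The 3 groups did not overlap. The group means were 1.4 ± 0.147, 8.64 ± 0.0898 and 0.788 ± 0.0649 FPKM (SD, n = 3 libraries each). The log2 change was 2.01 (SE 0.0908, 95% interval 1.8 to 2.21) in KO1, with an adjusted p of 8.84e-07 by limma, and -0.42 (interval -0.628 to -0.219) in KO2, with an adjusted p of 0.00824. The rise in KO1 was called under each of the 20 alternative settings except the filter at a mean of 5 FPKM, which left EPAS1 out. Without Vector replicate 3 and KO2 replicate 3 it was 2.05, and the fall in KO2 was 0.41 (adjusted p = 0.00246). The fall in KO2 was not called in a fit of the 6 Vector and KO2 libraries alone (adjusted p = 0.0558), nor after subtraction of the median change of genes within 5 Mb (-0.30, adjusted p = 0.0759), and its size was -0.75 with a pseudocount of 0.1.

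The 3 genes whose log2 levels followed EPAS1 most closely over the 9 libraries, among 7478 genes whose mean reached 5 FPKM, were SERPINE2, STK24 and PRKCE. Their Pearson r values were 0.9951, 0.995 and 0.9938; the 9 points share 3 groups, so such values follow largely from the group means, and no test was made. SERPINE2, a secreted serine protease inhibitor, had mean levels of 1.6, 18.6 and 1.03 FPKM in Vector, KO1 and KO2. PRKCE, which encodes protein kinase C epsilon, had means of 2.90, 12.2 and 2.17 FPKM and starts 642 kb from the start of EPAS1.

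HIF1A, the other oxygen-regulated subunit, was lower in KO1 by a margin that did not hold under most settings, and did not pass the test in KO2. The gene (ENSG00000100644) lies on the plus strand of chromosome 14, 61695513 to 61748259. Its level was 33.4, 32.7 and 22.2 FPKM in Vector, 20.7, 20.5 and 20.01 in KO1, and 29.1, 30.2 and 37.2 in KO2. A single Vector library, replicate 3, stood close to KO1, and the other Vector libraries lay within the range of KO2. In KO1 HIF1A fell by 0.49 on the log2 scale (SE 0.161, interval -0.85 to -0.123), with a limma adjusted p of 0.0433. Leaving out each library in turn, the call disappeared in 7 of 9 fits, with an adjusted p of up to 0.139 without Vector replicate 2, and kept without Vector replicate 3 (-0.67, adjusted p = 0.00164) or without KO2 replicate 3 (adjusted p = 0.0326). Fitted genes within 5 Mb of HIF1A had a median change of -0.588 over 56 genes, and after subtraction of that median the value for HIF1A was 0.14 (adjusted p = 0.313). In KO2 the log2 change was 0.14 (interval -0.228 to 0.499, adjusted p = 0.57), and without Vector replicate 3 and KO2 replicate 3 it was -0.15 (adjusted p = 0.0306).

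HIF1A-AS2, a noncoding gene annotated on the opposite strand across the 3′ end of HIF1A with no shared exon bases, also fell in KO1, by 1.25 on the log2 scale (limma adjusted p = 0.0047), and was not called with its neighbours subtracted (-0.64, adjusted p = 0.0754). Its means were 2.55, 0.49 and 1.51 FPKM in Vector, KO1 and KO2. These rest on few reads, 29, 15 and 25 in the Vector libraries and 2, 3 and 8 in KO1, so the size of the fall is uncertain. The genes that followed HIF1A most closely over the 9 libraries were POT1 (r = 0.9927), ATP6V1C1 (r = 0.9916) and ZHX1 (r = 0.9906), again without a test. POT1, a protein that caps telomeres, was at 7.11, 5.27 and 7.61 FPKM.

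**Figure D3:**
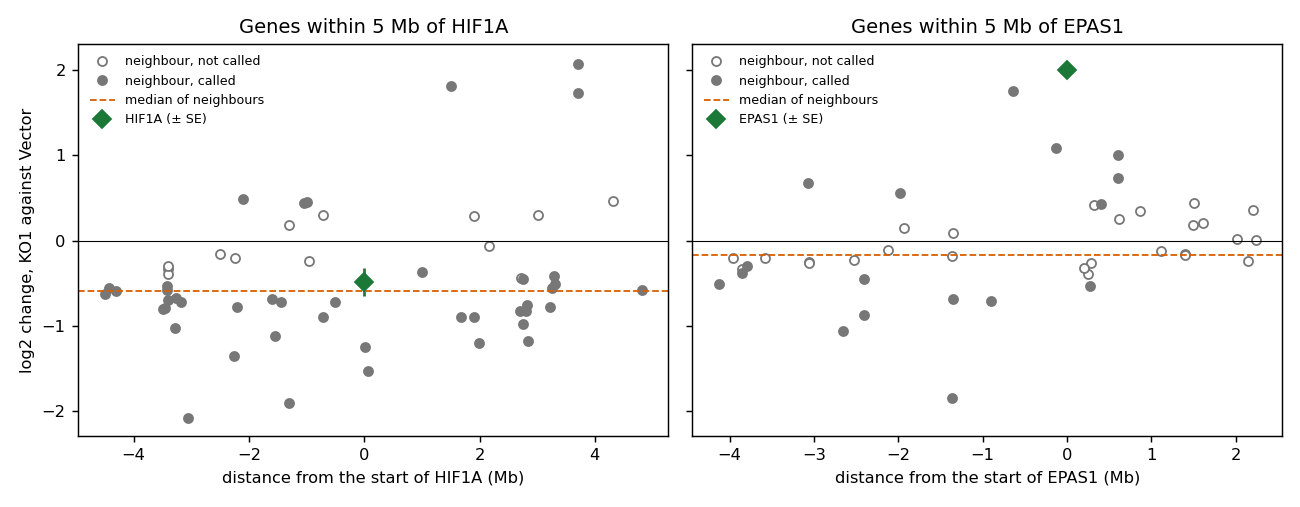
Log2 change in KO1 against Vector (vertical axis) of fitted genes by distance of their start from the start of HIF1A and of EPAS1 (horizontal axis, Mb); the green diamond is the named gene ± SE, filled grey points were called, and the dashed line is the median of the neighbours. HIF1A, at -0.49, lies near its neighbours' median of -0.588, while EPAS1, at 2.01, lies far above its neighbours' median of -0.173.

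EGLN1, the main prolyl hydroxylase that marks HIF alpha for destruction in normal oxygen, did not pass the test in either clone. The gene (ENSG00000135766) lies on the minus strand of chromosome 1, 231363751 to 231425044. Its level was 9.77, 9.71 and 7.997 FPKM in Vector, 10.02, 9.93 and 8.99 in KO1, and 9.48, 8.73 and 9.18 in KO2. All 3 groups overlapped. The log2 change had an interval of -0.159 to 0.302 in KO1 (limma adjusted p = 0.628) and of -0.231 to 0.231 in KO2 (adjusted p = 0.999).

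EGLN3, a hydroxylase that is itself a HIF target and usually rises when HIF is active, was at the edge of detection. The gene (ENSG00000129521) lies on the minus strand of chromosome 14, 33924231 to 34462774. Its recovered reads were 3, 6 and 2 in Vector, 0 in each KO1 library, and 1, 2 and 2 in KO2. A count of 0 over the KO1 libraries allows a level of up to 0.0083 FPKM at 3 reads over the group. EGLN3 was not fitted, and no fold change is given at this depth.

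NDRG1, a differentiation-related protein induced by hypoxia and by iron loss, changed most among the target genes. The gene (ENSG00000104419) lies on the minus strand of chromosome 8, 133237171 to 133302022. Its level was 0.155, 0.168 and 0.319 FPKM in Vector (25, 28 and 55 reads), 5.75, 5.19 and 4.82 in KO1 (901, 829 and 800 reads), and 0.0461, 0.0341 and 0.0503 in KO2 (8, 6 and 8 reads). The 3 groups did not overlap. NDRG1 rose in KO1 by 2.37 on the log2(FPKM + 1) scale (SE 0.11, interval 2.12 to 2.61), with a limma adjusted p of 1.05e-06. Because Vector lies below 1 FPKM, the pseudocount holds this value down: it was 4.13 with a pseudocount of 0.1 and 4.66 by limma-voom on the recovered reads. In KO2 the log2 change was -0.22 (interval -0.463 to 0.0315, adjusted p = 0.175) and was not called, but it was called with a pseudocount of 0.1 (-1.09, adjusted p = 0.0255) and by limma-voom (-2.18, adjusted p = 0.0023). Without Vector replicate 3 and KO2 replicate 3 the KO2 value was -0.16 (adjusted p = 0.236).

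BNIP3, a mitochondrial receptor for mitophagy, and P4HA1, the catalytic subunit of the prolyl hydroxylase that modifies collagen, fell in both clones. Both genes are on chromosome 10, minus strand: BNIP3 (ENSG00000176171) at 131966455 to 131982013 and P4HA1 (ENSG00000122884) at 73007217 to 73096974. BNIP3 was at 14.4, 12.2 and 9.62 FPKM in Vector, 7.47, 6.66 and 6.92 in KO1, and 7.57, 7.89 and 8.42 in KO2. P4HA1 was at 16.9, 15.8 and 10.98 FPKM in Vector, 7.496, 7.515 and 7.594 in KO1, and 9.13, 9.80 and 9.33 in KO2. For both genes each knockout library was below each Vector library, and Vector replicate 3 was the lowest Vector library.

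In KO1, BNIP3 fell by 0.69 (SE 0.134, interval -0.992 to -0.386) with a limma adjusted p of 0.0042, and P4HA1 fell by 0.84 (SE 0.142, interval -1.16 to -0.524) with an adjusted p of 0.00191. Both calls were kept under the 20 alternatives, and the falls were 0.83 and 1.02 without Vector replicate 3. In KO2, BNIP3 fell by 0.53 (interval -0.832 to -0.226, adjusted p = 0.0177) and P4HA1 by 0.56 (interval -0.878 to -0.237, adjusted p = 0.018). The KO2 calls were less firm: BNIP3 was not called without Vector replicate 1, Vector replicate 2, KO2 replicate 1 or KO2 replicate 2 (adjusted p between 0.0531 and 0.0594), and P4HA1 not without Vector replicate 1, Vector replicate 2 or KO2 replicate 1 (between 0.0563 and 0.0659), nor with the change of genes within 5 Mb subtracted (-0.34, adjusted p = 0.0639). In a fit of the 6 Vector and KO2 libraries alone, neither BNIP3 nor P4HA1 was called (limma adjusted p = 0.06 and 0.0629). Without Vector replicate 3 and KO2 replicate 3, both were called in KO2, at -0.71 (adjusted p = 0.000892) and -0.73 (adjusted p = 0.000137).

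ADM encodes adrenomedullin, a secreted vasodilator peptide and a common marker of hypoxia. The gene (ENSG00000148926) lies on the plus strand of chromosome 11, 10304680 to 10307397. Its level was 4.25, 4.35 and 6.83 FPKM in Vector, 4.20, 4.21 and 3.42 in KO1, and 15.6, 14.7 and 4.89 in KO2. KO2 replicates 1 and 2 were above every other library, while KO2 replicate 3 lay inside the Vector range. The log2 change in KO2 was 0.94 (interval 0.136 to 1.74), with a limma adjusted p of 0.0788, and was not called. Without KO2 replicate 3 it was 1.42 (adjusted p = 0.00118), the only call among the 9 fits that left out 1 library. Without KO2 replicate 1 it was 0.67 (adjusted p = 0.224). Without both KO2 replicate 3 and Vector replicate 3 it was 1.61 (adjusted p = 5.05e-05). KO2 replicate 3 was the library unlike the other KO2 libraries, so the small p-values of the fits without it depend on its removal. Of the 20 alternatives, 4 called the rise in KO2 (limma adjusted p down to 1.9e-05), and some of these kept that library. In KO1 the change was -0.29 (interval -1.09 to 0.509, adjusted p = 0.563).

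ANKRD37, a small ankyrin-repeat protein whose gene is a direct HIF-1 target, showed no called change in the main fit. The gene (ENSG00000186352) lies on the plus strand of chromosome 4, 185396021 to 185400628. It was at 0.801, 0.344 and 0.816 FPKM in Vector, 1.07, 0.691 and 0.665 in KO1, and 0.856, 0.692 and 0.383 in KO2. The groups overlapped throughout, on 15 to 44 reads per library. The interval of the log2 change was -0.253 to 0.524 in KO1 (adjusted p = 0.581) and -0.394 to 0.383 in KO2 (adjusted p = 0.986). Of the 19 alternatives that fitted ANKRD37, 1 called it in KO1 (limma adjusted p = 0.0405). Exons of UFSP2 on the opposite strand cover 35.2% of its exon length, and reads of the pair cannot be told apart where the library kit does not mark strand.

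CA9, the cell-surface carbonic anhydrase used as a tissue marker of hypoxia, was near absent. The gene (ENSG00000107159) lies on the plus strand of chromosome 9, 35673856 to 35681159. Its reads were 3, 0 and 0 in Vector, 0, 0 and 1 in KO1, and 0, 0 and 4 in KO2. In a library without reads, 3 reads would correspond to 0.1002 to 0.1126 FPKM, and 38.5% of its exon length is shared with ARHGEF39 on the opposite strand. No difference between groups could be detected at this depth.

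The direct comparison of the clones, KO2 against KO1, uses no Vector library in the difference and is a test between lines rather than a test of BCKDK. Of the 8 fitted genes, 2 were higher in KO2 and 2 lower, where 30.9% of all fitted genes were called (14.5% higher and 16.4% lower). EPAS1 differed by -2.43 on the log2 scale (interval -2.64 to -2.23, adjusted p = 5.18e-07 by limma), and NDRG1 by -2.58 (interval -2.83 to -2.33, adjusted p = 9.11e-07). NDRG1 had entered the fit only through KO1, the group in which it is high. ADM was higher in KO2 by 1.23 (interval 0.428 to 2.03, adjusted p = 0.0275), and HIF1A by 0.62 (interval 0.259 to 0.986, adjusted p = 0.0175). The EPAS1 and NDRG1 differences were called in each setting that fitted them. That of ADM was lost without any 1 KO1 library or without KO2 replicate 1 or 2 (adjusted p between 0.0645 and 0.0917) and was 1.72 (adjusted p = 0.000419) without KO2 replicate 3. That of HIF1A was lost without any 1 KO1 library or without KO2 replicate 3 (adjusted p between 0.0501 and 0.057), and with the change of genes within 5 Mb subtracted (median 0.447) it was 0.06 (adjusted p = 0.68). BNIP3 (0.16, interval -0.143 to 0.463), P4HA1 (0.29, interval -0.0335 to 0.608), EGLN1 (-0.07, interval -0.302 to 0.159) and ANKRD37 (-0.14, interval -0.53 to 0.247) were not called between the clones in the main fit. Among the 20 alternatives, P4HA1 was called in 5 (limma adjusted p down to 0.000686) and BNIP3 in 1 (adjusted p = 0.0457). One of those for P4HA1 was the fit without Vector replicate 3 and KO2 replicate 3 (0.29, adjusted p = 0.004).

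**Figure D4:**
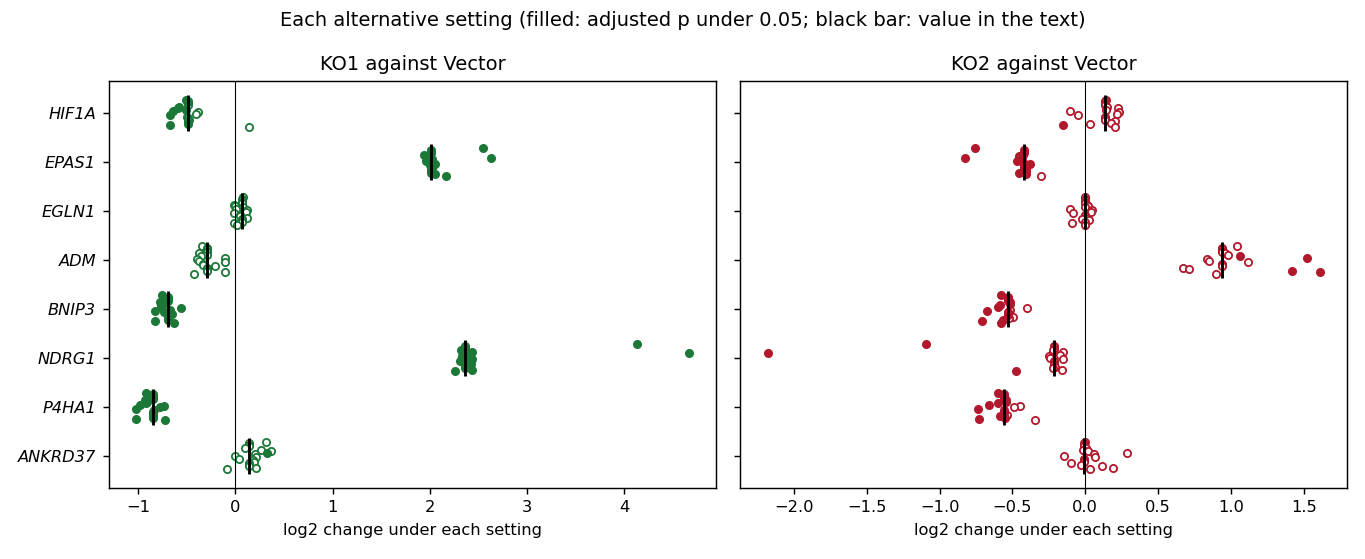
Log2 change (horizontal axis) of the 8 fitted genes in KO1 and KO2 against Vector under each alternative setting; filled points have an adjusted p under 0.05 and the black bar is the value in the text. BNIP3 and P4HA1 stay below 0 in both clones, NDRG1 in KO1 reaches 4.66 by limma-voom, and EGLN1 and ANKRD37 fall on both sides of 0.

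Of 16 listed HIF subunits, sensors and cofactors, 14 were fitted; 5 rose and 2 fell in KO1 (median 0.00645), and 2 rose and 1 fell in KO2 (median -0.0694), beside 34.1% and 27.9% of all fitted genes called. The counts without Vector replicate 3 and KO2 replicate 3 were 6 up and 4 down in KO1 and 4 up and 4 down in KO2, beside 56.8% and 49.5% of all genes. ARNT, the shared partner of both alpha subunits, was at 8.99, 8.97 and 8.80 FPKM in Vector, KO1 and KO2 and was not called in either clone. HIF3A and ARNT2 were not fitted, at mean levels of 0.00411 and 0.019 FPKM. In KO1, VHL rose by 0.55 (limma adjusted p = 0.00158), HIF1AN by 0.46 (0.00417), ELOB, an elongin subunit of the VHL ligase, by 0.63 (0.0115), and SIAH2, a ligase that degrades EGLN enzymes, by 0.44 (0.0229). Genes within 5 Mb of VHL had a median change of 0.429, and VHL was not called once that was subtracted (0.08, adjusted p = 0.565); nor was ELOB (0.24, adjusted p = 0.114). CITED2, which competes with HIF for its coactivators, fell by 0.67 (adjusted p = 0.0054) and EGLN2, a further prolyl hydroxylase, by 0.48 (0.0343). EGLN2 was at -0.07 (adjusted p = 0.677) with its neighbours' median of -0.408 subtracted, and at -0.32 (adjusted p = 0.038) without Vector replicate 3 and KO2 replicate 3. Exons of AC008537.1 and RAB4B-EGLN2 on the same strand cover 30.6% of the exon length of EGLN2, so the assignment of its reads is uncertain. In KO1, ELOB was not called without KO1 replicate 1 (adjusted p = 0.0523), SIAH2 not without Vector replicate 2, KO1 replicate 1 or KO1 replicate 2 (0.079 to 0.088), and EGLN2 not without those or KO2 replicate 2 (0.0512 to 0.112). In KO2, the coactivator EP300 rose by 0.74 (adjusted p = 0.00619), from 5.3 to 9.42 FPKM. HIF1AN also rose in KO2, by 0.29 (0.0404), and ELOC fell by 0.52 (0.0372), but with each library left out in turn both calls disappeared in 8 of 9 fits (adjusted p between 0.0576 and 0.112) and were kept without Vector replicate 3.

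Among 40 listed HIF targets outside glycolysis, 34 were fitted and the calls ran in both directions. In KO1, 7 rose and 11 fell (median 0.0876), and in KO2, 6 rose and 6 fell (median -0.0744), beside 34.1% and 27.9% of all fitted genes called. Leaving out Vector replicate 3 and KO2 replicate 3, the counts were 13 and 15 in KO1 (median 0.00693) and 10 and 12 in KO2 (median 0.0241), beside 56.8% and 49.5% of all genes. VEGFA, the angiogenic growth factor, rose in KO1 from 3.92 ± 0.397 to 8.98 ± 0.284 FPKM (log2 change 1.02, limma adjusted p = 0.00277) and was at 3.27 ± 1.14 in KO2 (SD, n = 3). The transcription factor BHLHE40 rose in KO1 by 1.36 (adjusted p = 0.000583), the sulfhydryl oxidase QSOX1 by 1.14 (0.000553), and the dioxygenase JMJD6 by 0.49 (0.00747; 0.20 and adjusted p = 0.123 with neighbours subtracted). LOX, the lysyl oxidase that crosslinks collagen, fell in both clones, by 0.99 in KO1 (0.000364) and 1.01 in KO2 (0.000439), having passed the filter only through Vector, at 1.65 FPKM beside 0.331 and 0.317. AK4, a mitochondrial adenylate kinase, fell in KO1, to 7.13 ± 0.314 FPKM from 12.8 ± 1.39 in Vector, and rose in KO2, to 25.3 ± 2.13, with adjusted p values of 0.000744 and 0.000299. KLHL24 also fell in KO1, by 0.75 (0.00177). RIMKLA passed the filter only through KO2, at 1.08 FPKM beside 0.227 in Vector and 0.393 in KO1. In KO2, RIMKLA rose by 0.76 (0.0021), ZNF395 by 0.61 (0.00391) and PAM, which amidates peptide hormones such as adrenomedullin, by 0.58 (0.00174), while the lipoprotein receptor VLDLR fell by 0.75 (0.000574) and STC2, a secreted stanniocalcin, by 0.72 (0.00888). Exons of FBXO16 on the same strand cover 34.9% of the exon length of ZNF395, so the assignment of its reads is uncertain. STC2 in KO2 was at -0.45 (adjusted p = 0.00164) without Vector replicate 3 and KO2 replicate 3, KO2 replicate 3 being at 1.63 FPKM beside 2.89 and 2.80.

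The 21 listed HIF targets in glycolysis, of which 20 were fitted, were called 6 times upward and 3 times downward in KO1 (median 0.15), and 3 times upward and 6 times downward in KO2 (median -0.0918), beside 34.1% and 27.9% of all fitted genes called. Without Vector replicate 3 and KO2 replicate 3 the counts were 10 and 4 in KO1 and 6 and 8 in KO2, beside 56.8% and 49.5% of all genes. In KO1 the lactate exporter SLC16A3 rose by 1.65 (limma adjusted p = 0.00169), the glucose transporter SLC2A1 by 0.87 (0.00189), TPI1 by 0.86 (0.00115) and GAPDH by 0.71 (0.00759). GAPDH was not called in KO1 with no filter on low values (limma adjusted p = 0.166). TPI1 and GAPDH have processed copies in the genome, so the assignment of their reads is uncertain. The transporter SLC2A3 fell in KO1 by 0.75 (0.00024), HK1 by 0.93 (0.000806) and GPI by 1.01 (0.000873), where the neighbours of GPI had a median of -0.672 and GPI was not called once this was subtracted (-0.36, adjusted p = 0.0782). In KO2, HK2, the hexokinase named in the series title, fell by 0.96 (adjusted p = 0.00035), from 14.6 to 6.96 FPKM, and PGK1, a phosphoglycerate kinase, fell by 0.85 (0.000586), from 121.6 to 67.1. PGK1 was not called with its neighbours' median of -0.348 subtracted (-0.52, adjusted p = 0.0612). SLC2A3 fell in KO2 by 0.55 (0.00183) and GPI by 0.90 (0.00213), with neighbours at -0.702 and no call after subtraction (-0.21, adjusted p = 0.282). PFKFB4 rose in KO2 by 0.57 (0.00782), PKM by 0.57 (0.0125), and TPI1 by 0.44 (0.0347), the last of which was not called in 7 of 9 fits with a library left out (adjusted p between 0.0524 and 0.117) and was called without Vector replicate 3 or KO2 replicate 3. Between the clones, 2 of the 20 were higher in KO2 and 7 lower, with a median of -0.305 beside -0.0173 over all fitted genes, of which 30.9% were called. With the same pair of libraries left out, these counts were 4 and 13, beside 47.7% of all genes.

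**Figure D5:**
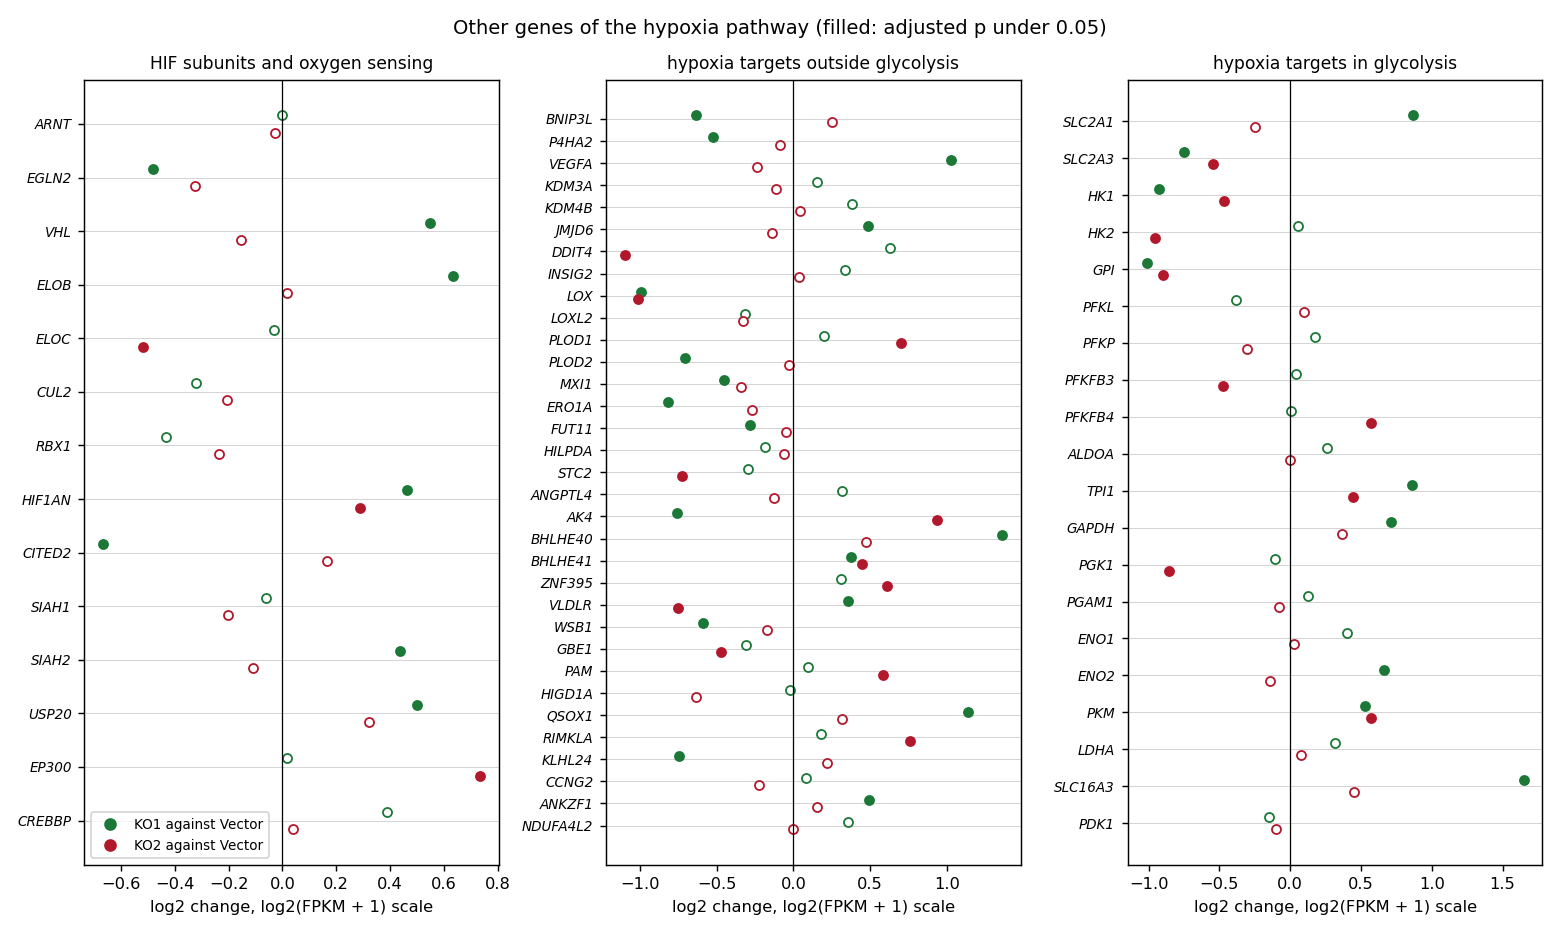
Log2 change on the log2(FPKM + 1) scale (horizontal axes) of other fitted genes of the hypoxia pathway in KO1 (green) and KO2 (red) against Vector, in 3 panels by role; filled points have a limma adjusted p under 0.05. Both panels of target genes hold called points on either side of 0, such as SLC16A3 at 1.65 and LOX at -0.99 in KO1.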

How the data were processed

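The authors sequenced total RNA of 9 H1299 libraries prepared with a NEBNext Ultra kit on an Illumina NovaSeq, per the labels' protocols. HISAT2 2.0.5, featureCounts 1.5.0-p3, CASAVA 1.6 and the hg38 build are named in the submitters' processing notes, with no settings for strand or multiply mapped reads. The authors deposited 1 table of FPKM values, in which 23132 of 58735 genes are at 0 in every library, and 99.95% of gene names equal those of GENCODE 29 (Ensembl 94). Multiplying by the merged exon length of each gene and a library factor gave whole reads within 0.02 for 100.0% of values, from which depth was taken. The ratio of the authors' effective library size to this total was 0.948 to 1.076, so the deposited values carry a further scaling.

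Genes were compared with limma 3.58.1 in R 4.3.3 (trended empirical Bayes, log2(FPKM + 1), 6 residual degrees of freedom, two-sided), with Benjamini-Hochberg adjustment over 16426 genes. A count test had been planned for count tables and was not used, because the values are FPKM. Group was the only term, and the alternatives are given at the end. The fit was tested on simulated data. Named genes were the 10 members, up to 4 rising and 4 falling called genes of smallest p per list and clone, and the 3 most correlated genes for HIF1A and for EPAS1. Members and lists were chosen with earlier results of these data known. Sequences come from the RefSeq promoter table; protein sequences were not used here. A further gene of the list outside glycolysis is counted there but not reported here.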

Additional observations from a re-analysis of the deposited data

Results flagged for a closer look

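The effects of the clones against Vector differed for 4 of the 8 fitted genes by the direct limma test of KO2 against KO1, in which 30.9% of all fitted genes were called. EPAS1 differed by -2.43 on the log2 scale and NDRG1 by -2.58, both being high in KO1 and lowest in KO2. NDRG1 had entered the fit only through KO1. ADM differed by 1.23, resting on KO2 replicates 1 and 2 at 15.6 and 14.7 FPKM beside 4.89 in KO2 replicate 3. HIF1A differed by 0.62, but the call was lost with the change of genes within 5 Mb subtracted (0.06, adjusted p = 0.68) and without any 1 KO1 library or KO2 replicate 3 (adjusted p between 0.0501 and 0.057). Groups of 3 libraries were not tested for outlying values.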

How the results depend on the processing

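Each comparison was refitted under 20 alternatives. Of 471 values of the 8 fitted genes, 394 kept direction and call, 34 lost the call, 14 gained it and 29 changed sign; of 947 values of other named genes, 861 kept both and 86 lost the call. The number of the 8 genes called, 5 in KO1, 3 in KO2 and 4 between the clones, moved to 3 (KO1) and 2 (between the clones) with a mean of at least 5 FPKM, which leaves out EPAS1, NDRG1 and ANKRD37. In KO2 it was 0 in a fit of 6 libraries (4 at an unadjusted p under 0.05, by limma), 5 by limma-voom, and 5 without Vector replicate 3 and KO2 replicate 3. The share of all genes by limma-voom, or at that unadjusted p, is not given beside these counts. Leaving out 1 library gave 4 to 5 in KO1, 1 (without Vector replicate 1, Vector replicate 2 or KO2 replicate 1) to 4 (without KO2 replicate 3) in KO2, and 2 (without any 1 KO1 library) to 5 (without Vector replicate 3) between the clones. A further alternative, chosen after seeing the data, took the other lists without that pair: calls moved from 18 to 28 (targets outside glycolysis) and 9 to 14 (in glycolysis) in KO1, from 3 to 8 (oxygen sensing), 12 to 22 and 9 to 14 in KO2, and from 9 to 17 (in glycolysis) between the clones.

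All genes called numbered 5609 in KO1, 4586 in KO2 and 5079 between the clones. They moved to 2940, 2407 and 2839 with a mean of at least 5 FPKM, where fewer genes were tested, to 10779, 10061 and 9764 with library weights, to 9335, 8138 and 7834 without Vector replicate 3 and KO2 replicate 3, and to 2963 in KO2 with 6 libraries; for the last 3 the cause was not tested. Leaving out 1 library gave 3705 to 7367 in KO1, 3203 to 6531 in KO2 and 3337 to 6756 between the clones, the highest each time without Vector replicate 3. Scaled to library size alone, 2214 genes were higher and 3289 lower in KO1 (2865 and 2744 in the text), and 2905 higher and 1935 lower in KO2 against KO1 (2386 and 2693). With the replicate number as a block, 4, 3 and 4 of the 8 genes were called, and 4911, 3953 and 4428 of all genes; HIF1A in KO1 was then not called (adjusted p = 0.0803). Same-numbered libraries correlated at -0.202 to 0.142 in their deviations from the group means, so the numbers were not taken as pairs.

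The sign of 3 genes changed under some settings. EGLN1 in KO1 was -0.0144 scaled to library size, -0.00478 with quantile normalization and -0.0137 without both doubted libraries. In KO2 it was 0.000299 (pseudocount 0.1), 0.0146 (library size), 0.0163 (quantile), 0.000682 (limma-voom) and 0.00166 (neighbours subtracted), and between the clones 0.029 (library size) and 0.0211 (quantile). ANKRD37 was -0.0845 in KO1 and 0.114 between the clones with neighbours subtracted, and in KO2 0.00661 (library size), 0.018 (limma-voom), 0.287 (weights), 0.188 (without both) and 0.0296 (neighbours). HIF1A, called at -0.49 in KO1, was 0.143 there with neighbours subtracted, and in KO2 -0.108 (weights) and -0.154 (without both). Leaving out 1 library gave -0.0137 to 0.117 for EGLN1 and -0.00725 to 0.21 for ANKRD37 in KO1, and -0.0853 to 0.0444 for EGLN1 (-0.0895 without both), -0.148 to 0.114 for ANKRD37 and -0.0481 to 0.235 for HIF1A in KO2. The causes were not tested. Depth limits EGLN3 and CA9, with at most 6 reads in any library, to a statement of detection.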

Other observations

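Genes near EPAS1, NDRG1 and HIF1A were listed after their values were seen. Within 1 Mb of EPAS1, 13 genes were fitted, of which 5 rose and 2 fell in KO1 (median 0.348) and 1 rose and 3 fell in KO2 (median -0.23), where 34.1% and 27.9% of all fitted genes were called. Among those that rose in KO1, the antisense gene AC017006.1 had passed the filter of 0.5 FPKM only through KO1. Its means were 0.104, 1.34 and 0.339 FPKM in Vector, KO1 and KO2. PRKCE rose in KO1 by 1.76 (limma adjusted p = 3.33e-06) and MCFD2, a cargo receptor subunit of the secretory pathway, by 1.01 (adjusted p = 4.7e-05). SRBD1 fell in both clones, from 5.999 FPKM to 3.27 in KO1 and 3.50 in KO2. Within 1 Mb of NDRG1, 4 genes were fitted and 1 rose in KO1: ST3GAL1, a sialyltransferase gene 218 kb away between the lower coordinates of the pair, went from 0.0576 to 2.13 FPKM (log2 change 1.57, adjusted p = 8.06e-06), having passed the filter of 0.5 FPKM only through KO1. Within 1 Mb of HIF1A, 7 genes were fitted, of which 4 fell and 1 rose in KO1 (median -0.714), and 2 fell and 1 rose in KO2 (median -0.274). SNAPC1, a subunit of a complex that activates small nuclear RNA genes, fell in KO1 by 1.53 (adjusted p = 0.000197) and in KO2 by 1.20 (adjusted p = 0.00105).

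The relatives of the 10 genes were mostly low: 5 of 11 were fitted, of which 1 rose and 2 fell in KO1 (median -0.196) and 3 rose in KO2 (median 0.372). Over all fitted genes, 34.1% were called in KO1 and 27.9% in KO2. NDRG2 went from 0.592 FPKM in Vector to 0.0325 in KO1 (log2 change -0.62, adjusted p = 0.00223) and to 1.06 in KO2 (0.37, adjusted p = 0.0311), against the direction of NDRG1. NDRG3 rose in KO2 by 0.49 (adjusted p = 0.0162) and NDRG4 by 0.55 (adjusted p = 0.0232). P4HB, the partner of P4HA1 in collagen prolyl hydroxylase, rose in KO1 by 0.40 (adjusted p = 0.0417). These calls rest on few libraries: NDRG4 and NDRG2 in KO2 were each not called without Vector replicate 1 or 2 or KO2 replicate 1 or 2, nor NDRG2 without KO1 replicate 2 or 3 (adjusted p between 0.0525 and 0.102), and P4HB was called in KO1 only with Vector replicate 3 or KO2 replicate 3 left out, among the fits with a library left out (adjusted p between 0.0529 and 0.138 in the others). P4HB was also not called scaled to library size (0.30, adjusted p = 0.0754), with quantile normalization (0.18, 0.303), with the replicate block (0.0508) or with its neighbours subtracted (0.07, 0.747). Without Vector replicate 3 and KO2 replicate 3, NDRG3 in KO2 was at 0.31 (adjusted p = 0.00194) and NDRG4 at 0.79 (0.00062), KO2 replicate 3 having NDRG4 at 1.40 FPKM beside 2.29 and 2.23. The listed receptor genes related to adrenomedullin were low and were not fitted. CALCRL was at 0.3465, 0.00321 and 0.1435 FPKM in Vector, KO1 and KO2, on 108, 1 and 45 reads. RAMP2 had a mean of 0.0114 FPKM over all libraries and ACKR3 of 0.0143, and RAMP1 and RAMP3 were listed at 0.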
